A study of Arabidopsis thaliana with 6 samples.

Results

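The 10 genes described here are core members of the Arabidopsis transcript response to low oxygen, chosen by their TAIR gene identifiers from the 32319 identifiers in the deposited expression table. They are ADH1 (AT1G77120), PDC1 (AT4G33070), PDC2 (AT5G54960), HB1 (AT2G16060), SAD6 (AT1G43800), PCO1 (AT5G15120), PCO2 (AT5G39890), LBD41 (AT3G02550), HRA1 (AT3G10040) and AT3G10020. The rule takes genes by identifier and sets no threshold on a measured value, but the genes were picked with earlier results of these data known. RNA was sequenced from whole seedlings of wild-type Arabidopsis thaliana, Col-0 ecotype, labelled 4 days old. Both groups spent 1 h in liquid half-strength Murashige and Skoog medium with sucrose. Medium for the treated group held 100 µM NAE 18:3, the ethanolamide of linolenic acid, and medium for the control group held 0.07% DMSO, the solvent. There were 3 libraries per group, described in the labels as biological replicates, and the DMSO content of the NAE 18:3 medium is not recorded. Seedlings were in liquid in both groups, the labels give no oxygen measurement, and no group was kept in air or at a set oxygen level.

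Plants sense oxygen through the stability of the group VII ethylene response factors (ERF-VII), transcription factors whose N-terminal cysteine is oxidised by plant cysteine oxidases (PCOs) when oxygen is present. The oxidised proteins are arginylated and passed to the ubiquitin ligase PRT6 for degradation. When oxygen falls, the factors persist and switch on a small set of genes in most cell types. These include enzymes of ethanol fermentation, which regenerate NAD+ for glycolysis, and the feedback regulators PCO1, PCO2 and HRA1.

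The values are FPKM, by definition fragments scaled by transcript length and by the mapped fragments of the library. Levels of different genes are therefore on a per-length scale. Which library scaling was applied to the deposited values was not checked, and the relative depths below rest on that definition. Depth of the libraries relative to NAE 18:3 replicate 1, read from the steps of the lowest values, ran from 0.482 to 1.27, with DMSO replicate 1 the shallowest. How many fragments each library held is not known, and counting error could not be given. Summed FPKM, leaving out AT3G08520 and AT2G07748, loci with an extreme value in replicate 1 of a group, was 687951 to 697645 in DMSO and 991458 to 1023150 in NAE 18:3. Because the sums differed between groups, each change below was also computed after bringing the libraries to one upper quartile, after quantile normalization and after bringing them to one summed FPKM. With the deposited values these make 4 scalings, and the median log2 change of all tested loci was 0.06, -0.25, -0.03 and -0.41 under them in that order. A positive log2 change means a higher level after NAE 18:3. It was computed from log2(FPKM + 1), so changes of genes near 0 are understated.

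The core hypoxia genes did not move together after NAE 18:3. PDC1, SAD6, HB1 and ADH1 fell, by between 2.304-fold and 23.6-fold. AT3G10020 rose 11.7-fold and LBD41 rose 2.01-fold, and these 6 kept their call and direction under all 4 scalings. That is 40% of the 10 genes lower and 20% higher throughout, near the 36.2% and 26.5% of all tested loci. HRA1 fell and PDC2 rose on the deposited scale, but each lost its call under 1 of the other scalings. PCO1 and PCO2, the cysteine oxidase genes that low oxygen induces, had overlapping groups and passed no threshold on the deposited scale. In the same libraries the summed level of 15 root markers was 2883 to 2966 FPKM in DMSO and 1181 to 1211 FPKM in NAE 18:3, and that of 12 shoot photosynthesis markers was 42522 to 43779 FPKM and 101092 to 107345 FPKM. Most of the root sum came from PYK10, at 2750 ± 52.4 FPKM in DMSO and 1141 ± 13.5 FPKM in NAE 18:3 (SD, n = 3 each). Whether the marker levels reflect a shift in organ makeup, and the part of any such shift in the changes of the 10 genes, was not tested. In whole seedlings fewer cells of a type and less RNA per cell cannot be told apart.

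All 10 genes passed the filter on low values. Of these, 3 were called higher, 5 lower and 2 neither (limma, Benjamini-Hochberg adjusted p under 0.05 over 18194 loci), with a median log2 change of -0.21. Calls were common across the seedling transcriptome, with 83.2% of all tested loci called, 44.1% higher and 39.2% lower, so a call alone does not set a gene apart here. Groups did not overlap for 8 of the 10 genes, against 84.6% of all loci. Falls of at least 2-fold on the log2(FPKM + 1) scale were called for 4 of the 10 genes and for 17.2% of all loci, and rises of that size for 1 gene and for 18.4% of all loci.

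**Figure D1:**
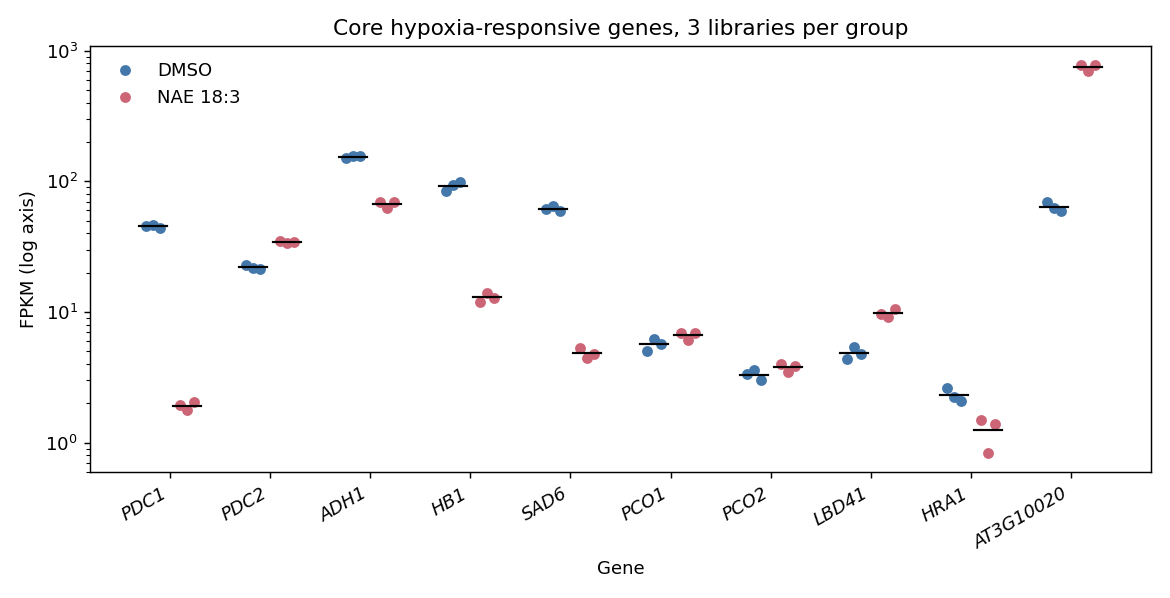
FPKM of each core hypoxia gene on a log axis, with one point for each of the 3 libraries of DMSO and of NAE 18:3. The libraries of the groups are well apart for PDC1, SAD6, HB1 and AT3G10020, while those of PCO1 and PCO2 overlap.

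Ethanol fermentation takes pyruvate to acetaldehyde by pyruvate decarboxylase and on to ethanol by alcohol dehydrogenase. PDC1, the pyruvate decarboxylase most strongly induced by low oxygen, stood at 45.6, 46.6 and 43.8 FPKM in the DMSO libraries and at 1.93, 1.79 and 2.05 FPKM in the NAE 18:3 libraries. The fitted log2 change was -3.99 ± 0.06 (SE, adjusted p = 1.11e-10 by limma with the Benjamini-Hochberg method), and 0.187% of tested loci had a lower change. PDC1 thus went from the 86.6th percentile of levels among tested loci to the 13.3rd. PDC2, a second active copy, went the other way, from 23.1, 21.5 and 21.2 FPKM to 35.2, 33.5 and 34.5 FPKM. The 3 NAE 18:3 libraries were all above the 3 DMSO libraries, with a log2 change of 0.63 ± 0.05 (SE, adjusted p = 2.13e-06). After equal-sum scaling the change was 0.11 and the call was lost (adjusted p = 0.057). ADH1, the main alcohol dehydrogenase and the most abundant of the 10 genes in DMSO, read 151, 158 and 156 FPKM in DMSO and 69.6, 62.2 and 70.0 FPKM in NAE 18:3. Its fall by 1.19 on the log2 scale (SE 0.05, adjusted p = 3.91e-08) left it at 67.2 ± 4.42 FPKM (SD, n = 3), still the second most abundant of the 10. A lower change than that of ADH1 was found at 13.9% of tested loci, so its fall was less extreme than that of PDC1.

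PDC1 and PDC2 were read in the same libraries, so a factor common to a whole library cancels in their ratio, apart from the pseudocount. Quantile normalization is no such factor, and under it PDC1 changed by -4.04 and PDC2 by 0.29. The log2 ratio of PDC1 to PDC2 was 1.02 ± 0.06 in DMSO and -3.60 ± 0.05 in NAE 18:3 (SD, n = 3 each), a difference of -4.62. An exact two-sided permutation test over libraries gave p = 0.1, the smallest that 3 against 3 can give, or 0.2 after adjustment over the 2 gene pairs compared. Summed over the 4 PDC genes, pyruvate decarboxylase transcripts stood at 69.4 ± 2.21 FPKM in DMSO and 36.6 ± 1.01 FPKM in NAE 18:3 (SD, n = 3 each), a sum that was not tested. PDC2 made up 31.6 ± 0.95% of that sum in DMSO and 94.1 ± 0.36% in NAE 18:3. The main pyruvate decarboxylase transcript was therefore PDC1 in every DMSO library and PDC2 in every NAE 18:3 library.

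**Figure D2:**
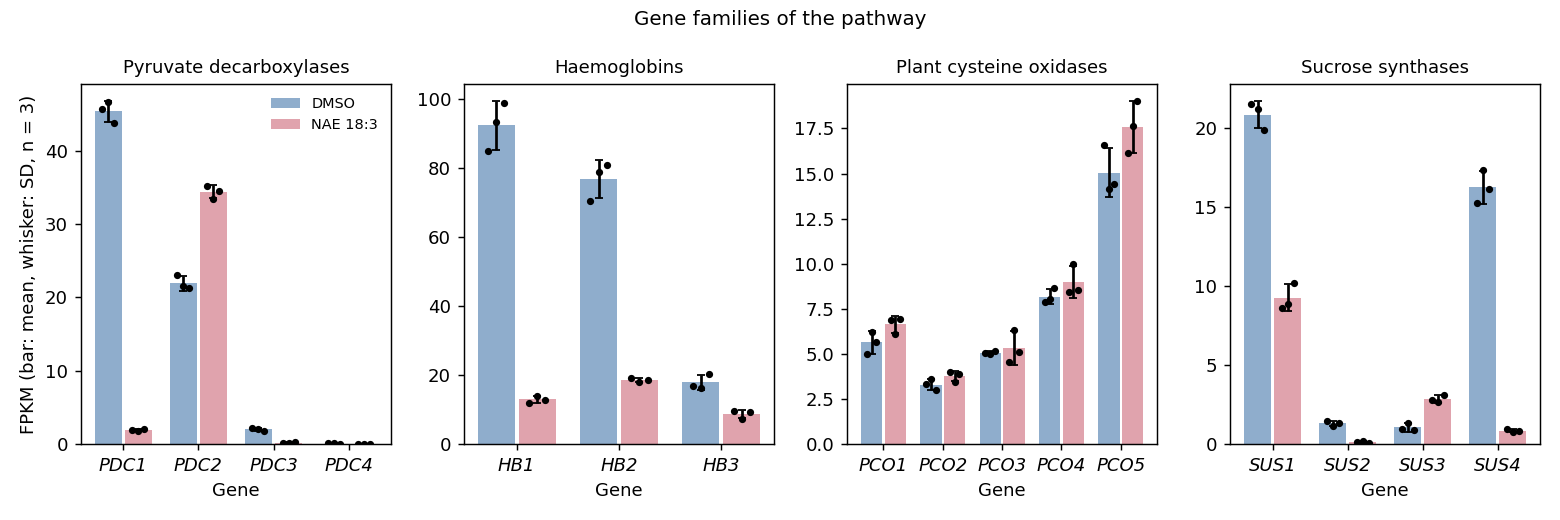
Mean FPKM (bars, with SD whiskers, n = 3) and single libraries (points) of the genes of families in the pathway, DMSO beside NAE 18:3, on linear axes that start at 0. PDC1 and PDC2 exchange rank between the groups, and HB1 and HB2 are both lower after NAE 18:3.

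The 250 bases before the gene start are shown for the fermentation genes ADH1, PDC1 and PDC2 and for SAD6 and LBD41, because these are the genes of the 10 that hold one of the motifs searched. Sequences were read from the RefSeq annotation of TAIR10.1 by gene identifier, 5′ to 3′ on the gene's strand. Capitals mark AAACCA, the core of the anaerobic response element described in maize, and CACGTG, the G-box. ADH1 lies at chr1:28975005-28975254 on the plus strand, PDC1 at chr4:15954804-15955053 on the minus strand and SAD6 at chr1:16577271-16577520 on the plus strand. PDC2 lies at chr5:22312833-22312975 on the minus strand, where 143 bases are shown because a neighbouring gene, AT5G54970, begins beyond them, and LBD41 at chr3:538127-538376 on the minus strand.
ADH1: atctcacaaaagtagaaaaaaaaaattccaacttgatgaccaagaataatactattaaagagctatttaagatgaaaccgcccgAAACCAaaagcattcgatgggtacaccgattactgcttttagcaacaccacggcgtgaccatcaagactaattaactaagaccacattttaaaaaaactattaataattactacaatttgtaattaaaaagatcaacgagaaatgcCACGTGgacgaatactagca
PDC1: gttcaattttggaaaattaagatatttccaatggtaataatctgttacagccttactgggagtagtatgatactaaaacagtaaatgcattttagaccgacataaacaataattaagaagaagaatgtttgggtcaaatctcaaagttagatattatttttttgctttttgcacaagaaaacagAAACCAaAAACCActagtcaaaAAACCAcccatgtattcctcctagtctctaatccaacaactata
SAD6: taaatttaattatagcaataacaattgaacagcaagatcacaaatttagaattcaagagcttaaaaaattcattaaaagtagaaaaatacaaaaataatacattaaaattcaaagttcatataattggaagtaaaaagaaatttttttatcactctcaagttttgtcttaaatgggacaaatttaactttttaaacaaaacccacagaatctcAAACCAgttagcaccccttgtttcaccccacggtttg
PDC2: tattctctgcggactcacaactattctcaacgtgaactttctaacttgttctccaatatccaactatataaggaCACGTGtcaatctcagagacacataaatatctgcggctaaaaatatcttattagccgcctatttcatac
LBD41: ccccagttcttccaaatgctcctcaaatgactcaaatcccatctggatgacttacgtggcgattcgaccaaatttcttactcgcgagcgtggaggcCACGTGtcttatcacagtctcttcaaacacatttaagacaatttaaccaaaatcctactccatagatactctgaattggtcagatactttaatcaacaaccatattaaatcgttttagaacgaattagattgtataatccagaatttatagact

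The motifs did not sort the genes by direction in a simple way. AAACCA, searched on both strands, was found in 3 of the 10 windows and in 27.3% of 27438 windows of protein-coding genes. PDC1 held it at 3 places, starting at -66, -59 and -44 from the gene start, and 0.973% of all windows held it at 3 or more. ADH1 and SAD6 held it once each, at -166 and -37. PDC1, ADH1 and SAD6 are among the 5 genes called lower after NAE 18:3, but HB1 and HRA1 were called lower without it. A link of the motif to direction was not tested, and the motifs were chosen with earlier results of these data known. CACGTG was found in 3 of the 10 windows and in 6.49% of all windows. It lay at -20 in ADH1, which fell, at -154 in LBD41, which rose, and at -226 and -69 in PDC2, whose window of 250 bases reaches into the neighbouring gene. Of all windows, 0.875% held CACGTG at 2 or more places. GCCGCC, the GCC box bound by ethylene response factors, was found in the window of PDC2 alone among the 10 genes, at -16, and in 1.87% of all windows. HB1, PCO1, PCO2, HRA1 and AT3G10020 held none of the 3 motifs in this window. A match describes the letters of the window and does not show binding.

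HB1 encodes a class 1 phytoglobin, which scavenges nitric oxide under low oxygen. It stood at 84.8, 93.2 and 98.8 FPKM in DMSO and at 12.0, 14.0 and 12.9 FPKM in NAE 18:3. The groups were far apart, with a 7.12-fold lower mean and a log2 change of -2.74 ± 0.07 (SE, limma, Benjamini-Hochberg adjusted p = 2.09e-09), and 1.17% of loci had a lower change. Its relatives fell too, since HB2, a class 2 phytoglobin, went from 76.7 ± 5.48 to 18.5 ± 0.61 FPKM (log2 change -1.99, adjusted p = 3.9e-09). The summed level of HB1, HB2 and HB3 was 187 ± 14.0 FPKM in DMSO and 40.3 ± 0.93 FPKM in NAE 18:3 (SD, n = 3 each).

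SAD6 encodes a stearoyl-acyl carrier protein desaturase, which puts a double bond into saturated fatty acids, and it is the member of its family tied to the low-oxygen response. It read 61.6, 64.5 and 59.6 FPKM in DMSO and 5.34, 4.46 and 4.78 FPKM in NAE 18:3. This was a 12.7-fold fall, with a log2 change of -3.43 ± 0.06 (SE, adjusted p = 3.57e-10), and 0.379% of loci had a lower change. SAD6 held 25.9 ± 0.44% of the summed level of the 7 desaturase genes in DMSO and 3.00 ± 0.31% in NAE 18:3. FAB2, the housekeeping desaturase, held 53.7 ± 0.24% and 66.9 ± 1.08%. The summed level itself was 239 ± 5.38 FPKM in DMSO and 162 ± 2.14 FPKM in NAE 18:3. So the share of FAB2 rose while its level fell, from 128 ± 2.59 to 108 ± 3.19 FPKM (log2 change -0.24, limma adjusted p = 0.000166).

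PCO1 and PCO2 encode the cysteine oxidases that mark ERF-VII proteins for degradation and that low oxygen itself induces. PCO1 stood at 5.01, 6.22 and 5.69 FPKM in DMSO and at 6.88, 6.12 and 6.93 FPKM in NAE 18:3. The NAE 18:3 replicate 2 value lay within the DMSO range, and the log2 change of 0.21 ± 0.09 (SE) missed the threshold (adjusted p = 0.0565). PCO2 stood at 3.32, 3.59 and 3.00 FPKM in DMSO and at 3.98, 3.46 and 3.88 FPKM in NAE 18:3, again with overlap, and its log2 change was 0.15 ± 0.09 (SE, adjusted p = 0.155). The sign of both changed with scaling. Upper-quartile scaling gave -0.10 for PCO1 and -0.12 for PCO2, neither called (adjusted p = 0.312 and 0.221). Quantile normalization gave 0.24 and 0.34 (adjusted p = 0.0356 and 0.00897), while equal-sum scaling gave -0.26 and -0.27 (adjusted p = 0.0199 and 0.0182). PCO1 was also called higher without DMSO replicate 2 (0.27, adjusted p = 0.0268) and without NAE 18:3 replicate 2 (0.26, adjusted p = 0.043). Neither direction therefore held for these genes. The log2 ratio of PCO1 to PCO2 was 0.62 ± 0.14 in DMSO and 0.68 ± 0.02 in NAE 18:3 (SD, n = 3 each), with an exact two-sided permutation p of 0.7, and 0.7 after adjustment over the 2 pairs. Under quantile normalization the change of PCO2 exceeded that of PCO1. The difference of 0.06 turned to -0.02 without DMSO replicate 1, the shallowest library.

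The split between transcripts of PCO1 and PCO2 varied widely between libraries of a group. The table gives PCO1 4 assembled transcripts, and the share of its first ranged from 9.09% in DMSO replicate 3 to 82.8% in DMSO replicate 1. PCO2 had 3, with 43.0% to 97.3% in its first. Only the locus values of these genes are compared here. LBD41 had 2 transcripts, the first at 80.3% to 94.6%. ADH1, PDC1, PDC2, HB1 and SAD6 had 1 transcript each.

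LBD41 encodes a LOB-domain transcription factor that is among the genes most regularly induced by low oxygen. It rose from 4.36, 5.44 and 4.73 FPKM in DMSO to 9.63, 9.09 and 10.5 FPKM in NAE 18:3. Each NAE 18:3 library was above each DMSO library, and the log2 change was 0.88 ± 0.09 (SE, limma, Benjamini-Hochberg adjusted p = 1.57e-05). Under the other scalings it stayed called, at 0.41 to 0.88. A higher change was found at 21.0% of loci, so this rise was not extreme among tested loci. LBD37 and LBD38, family members known as repressors of nitrogen-responsive genes, rose further. LBD37 went from 53.0 ± 1.93 to 153 ± 5.06 FPKM (log2 change 1.51, adjusted p = 2.48e-09). LBD38 went from 37.6 ± 2.84 to 138 ± 4.59 FPKM (log2 change 1.85, adjusted p = 4.89e-09). LBD40, another family member, fell from 2.91 ± 0.50 to 0.891 ± 0.25 FPKM (log2 change -1.05, adjusted p = 0.000116) and was lower under all 4 scalings.

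HRA1 encodes a trihelix transcription factor that is induced through RAP2.12 and restrains it. It was the least abundant of the 10 genes, at 2.62, 2.23 and 2.08 FPKM in DMSO and at 1.496, 0.837 and 1.40 FPKM in NAE 18:3. The groups did not overlap, and the log2 change was -0.57 ± 0.14 (SE, adjusted p = 0.00536). Quantile normalization reduced this to -0.25 and the call was lost (adjusted p = 0.144). The table assigns HRA1 a further locus, below the filter, at 0.771, 0.860 and 0 FPKM in DMSO and at 0, 0.437 and 0.643 FPKM in NAE 18:3. Its groups overlapped, and the values used for HRA1 are those of the more abundant locus.

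AT3G10020 encodes a protein of unknown function that recurs in sets of hypoxia-induced genes. It stood at 69.7, 62.8 and 59.2 FPKM in DMSO and at 775, 701 and 775 FPKM in NAE 18:3. This was the only rise of at least 2-fold on the log2(FPKM + 1) scale among the 10 genes, with a log2 change of 3.53 ± 0.06 (SE, adjusted p = 2.8e-10), and 1.39% of loci had a higher change. It replaced ADH1 as the most abundant of the 10. All of the signal was given to the first of its 2 annotated transcripts, and the other was listed at 0 in all 6 libraries.

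**Figure D3:**
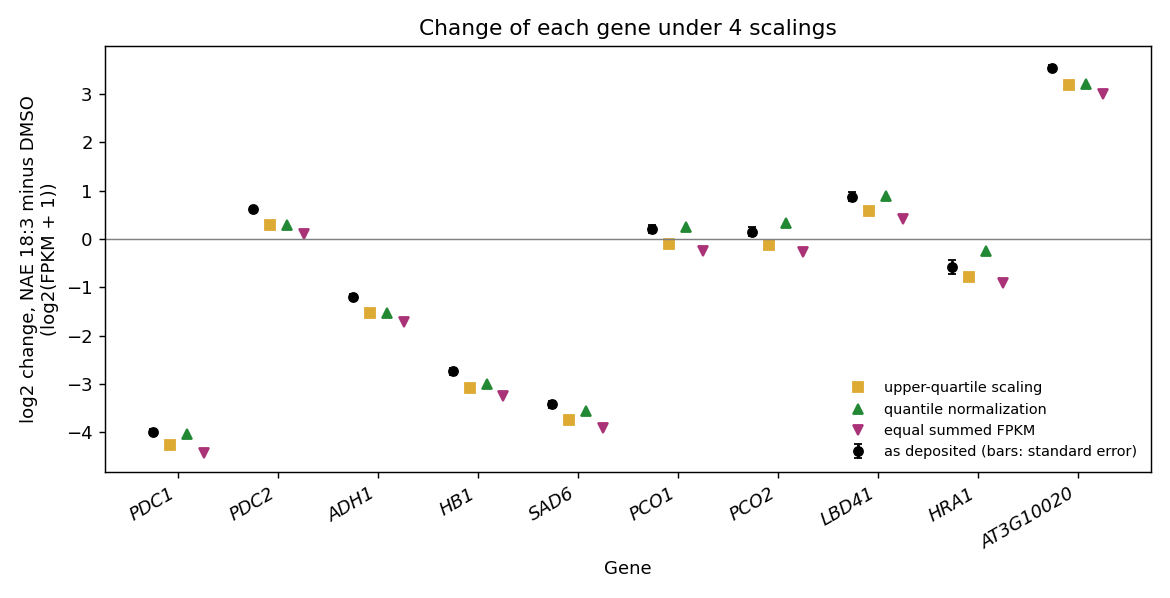
Log2 change (NAE 18:3 minus DMSO, log2(FPKM + 1)) of each gene under the deposited values, with standard errors, and under 3 other scalings. PDC1, SAD6, HB1 and ADH1 lie below 0 and AT3G10020 and LBD41 above 0 under all 4, whereas PCO1 and PCO2 lie on both sides.

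The transcription factors above these genes were measured as well. All 5 ERF-VII genes were tested, and 4 were called higher and 1 lower, where 44.1% of all loci were called higher and 39.2% lower. Their median log2 change was 0.51 against 0.06 for all loci, and 0.03 against -0.41 after equal-sum scaling. Under all 4 scalings 1 was called higher and 1 lower, 20% each, against 26.5% and 36.2% of all loci. HRE2, which low oxygen itself induces, rose from 3.15 ± 0.82 to 14.6 ± 1.08 FPKM (SD, n = 3 each), with a log2 change of 1.93 (adjusted p = 1.42e-06) that stayed at 1.47 to 1.95 under the other scalings. HRE1 went from 3.66 ± 0.81 to 5.41 ± 0.36 FPKM (log2 change 0.47, adjusted p = 0.00671) and RAP2.3 from 50 ± 0.49 to 76.3 ± 4.20 FPKM (0.60, adjusted p = 2.06e-06). Both were called on the deposited scale but not after equal-sum scaling, where their changes were 0.03 and 0.07. HRE1 also lost its call under upper-quartile scaling (0.19, adjusted p = 0.19), which left 3 ERF-VII genes higher. RAP2.12, a constitutively expressed activator of this gene set, went from 90.5 ± 1.15 to 129 ± 1.76 FPKM (0.51, adjusted p = 3.78e-07), though equal-sum scaling turned its change to -0.03. RAP2.2 fell from 123 ± 3.85 to 97.4 ± 0.75 FPKM (-0.33, adjusted p = 1.53e-05) and fell under all 4 scalings. These are transcript levels, while the pathway acts on the stability of the proteins, which was not measured.

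The list of the degradation route holds its enzymes, partners of ERF-VII proteins and further substrates, and its tested genes changed by less than 2-fold on the deposited log2(FPKM + 1) scale. Of 12 genes in this list, 11 were tested. On the deposited scale 8 were called higher and none lower, with a median log2 change of 0.30. Of all tested loci 44.1% were called higher and 39.2% lower, with a median of 0.06. For 8 of the 11 the sign differed between scalings, and equal-sum scaling called 2 higher and 6 lower. Under all 4 scalings 18.2% of the 11 were called higher and none lower, against 26.5% and 36.2% of all loci. The genes called higher under all 4 were PRT6 and ATE1. PRT6, the ubiquitin ligase, rose from 7.998 ± 0.76 to 13.6 ± 0.38 FPKM (log2 change 0.70, limma adjusted p = 1.72e-05). ATE1, an arginyl transferase, rose from 7.93 ± 0.52 to 15.9 ± 0.42 FPKM (0.92, adjusted p = 9.34e-07). MED25, a Mediator subunit that ERF-VII factors recruit, was called higher on the deposited scale (0.59, adjusted p = 4.51e-05) and not after equal-sum scaling (0.09, adjusted p = 0.235). The second arginyl transferase gene ATE2 (0.39), the membrane tethering gene ACBP2 (0.33), VRN2 (0.30), a further substrate of the same degradation route, and BIG, a giant protein linked to this route (0.25), were called higher on the deposited scale, and each had a negative change after equal-sum scaling. PCO5 was called at 0.21 (adjusted p = 0.0321) despite overlapping groups and was negative under the 3 other scalings. PCO4 (0.12, adjusted p = 0.182), ACBP1 (0.05, adjusted p = 0.545) and PCO3 (0.05, adjusted p = 0.676, at a locus joined with AT1G18486) were not called on the deposited scale. All 3 were called lower after equal-sum scaling (adjusted p = 0.00303, 0.000319 and 0.0074 in that order), as were PCO5, BIG and VRN2, and PCO4 and ACBP1 were called lower after upper-quartile scaling as well (adjusted p = 0.0439 and 0.00671). ZPR2, a further substrate, stood below the filter at 1.56 ± 0.13 FPKM in DMSO and 0.229 ± 0.21 FPKM in NAE 18:3. The 5 PCO genes summed to 37.3 ± 0.54 FPKM and 42.3 ± 2.07 FPKM.

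Other enzymes around fermentation were split as well. Of 9 genes, 8 were tested, with 5 called higher, 2 lower and 1 neither, where 44.1% of all loci were called higher and 39.2% lower. A sign that differed between scalings was found for 3 of them. Under all 4 scalings 25% were called higher and 25% lower, against 26.5% and 36.2% of all loci. ALAAT1, an alanine aminotransferase that makes alanine from pyruvate under low oxygen, rose from 112 ± 1.203 to 209.7 ± 4.72 FPKM (log2 change 0.90, adjusted p = 1.01e-08). ALDH2B7, a mitochondrial aldehyde dehydrogenase that oxidises acetaldehyde, rose from 4.62 ± 0.26 to 14.0 ± 0.24 FPKM (1.41, adjusted p = 5.47e-08). PDC3 fell from 2.02 ± 0.18 to 0.233 ± 0.04 FPKM (-1.29, adjusted p = 9.41e-06), and its value is uncertain because PDC4 is a closely similar neighbour. HOT5, the class III alcohol dehydrogenase that reduces S-nitrosoglutathione, went from 158 ± 5.14 to 147 ± 3.49 FPKM (-0.11, adjusted p = 0.0195). ALAAT1 and ALDH2B7 were higher, and PDC3 and HOT5 lower, under all 4 scalings.

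Upstream of fermentation, the listed transcripts of glycolysis and sucrose cleavage were mostly lower. Of 14 genes, 13 were tested, 2 were called higher and 11 lower, and the same 13 calls stood under all 4 scalings. The 11 make 84.6% of those tested lower and the 2 make 15.4% higher, where all loci gave 36.2% and 26.5% under all 4 scalings. Because the list was chosen with earlier results of these data known, these shares describe the listed genes only. The median log2 change was -0.68 on the deposited scale. SUS4, a sucrose synthase induced by low oxygen, fell from 16.2 ± 1.03 to 0.849 ± 0.10 FPKM (-3.22, adjusted p = 1.89e-09). GAPC2, a cytosolic glyceraldehyde-3-phosphate dehydrogenase, fell from 1178 ± 17.5 to 456.5 ± 13.2 FPKM (-1.37, adjusted p = 8.92e-10). PKP2, a plastid pyruvate kinase subunit, rose from 87.6 ± 1.55 to 208.6 ± 4.12 FPKM (1.24, adjusted p = 1.69e-09), and SUS3 rose from 1.06 ± 0.27 to 2.86 ± 0.25 FPKM (0.91, adjusted p = 0.000127). In the sucrose synthase family the share of SUS4 went from 41.1 ± 1.86% to 6.51 ± 0.94% and that of SUS3 from 2.67 ± 0.58% to 21.9 ± 0.67%, and the family sums were 39.4 ± 1.43 and 13.1 ± 1.02 FPKM.

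A wider list of 35 genes often induced by low oxygen was also divided. Of the 33 tested, 19 were called higher, 11 lower and 3 neither, with a median log2 change of 0.90. Under all 4 scalings 17 were called higher and 10 lower, 51.5% and 30.3% of those tested, against 26.5% and 36.2% of all loci. This list too was chosen with earlier results known, so its shares describe the listed genes only. PP2-A13, an F-box protein of the phloem protein type, rose from 2.67 ± 0.45 to 179 ± 1.71 FPKM (5.63, adjusted p = 1.07e-10). The locus of AT2G15880, which the assembly joined with AT2G15890, rose from 11.04 ± 0.43 to 266 ± 7.36 FPKM (4.47, adjusted p = 1.61e-11), and its values cannot be divided between those genes. ACO1, which makes ethylene from its precursor, fell from 34.8 ± 1.496 to 2.33 ± 0.37 FPKM at its main locus (-3.43, adjusted p = 1.79e-09). AT5G44730, a haloacid dehalogenase-like hydrolase, fell from 22.3 ± 0.83 to 10.3 ± 0.10 FPKM (-1.05, adjusted p = 8.42e-08).

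Relatives of the 10 genes moved in both directions too. Of 13 paralogs, 11 were tested, 4 were called higher, 5 lower and 2 neither, with a median log2 change of -0.04. All loci gave 44.1% higher and 39.2% lower, with a median of 0.06. Under all 4 scalings 36.4% of the paralogs were called higher and 45.5% lower, against 26.5% and 36.2% of all loci. AAD4, a desaturase of the SAD6 family, fell from 7.63 ± 0.71 to 0.691 ± 0.06 FPKM (-2.35, adjusted p = 3.76e-08). The family did not fall throughout, as AAD1 rose from 2.28 ± 0.08 to 10.5 ± 0.22 FPKM (1.81, limma adjusted p = 1.89e-08) and was higher under all 4 scalings. AAD3 (-0.04) and AAD5 (-0.03) were not called on the deposited scale, though AAD5 was called lower under each other scaling. LBD41 held 3.90 ± 0.49% of the summed level of the 6 LBD genes compared in DMSO and 2.52 ± 0.10% in NAE 18:3, where the sums were 124 ± 5.13 and 386 ± 12.9 FPKM.

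**Figure D4:**
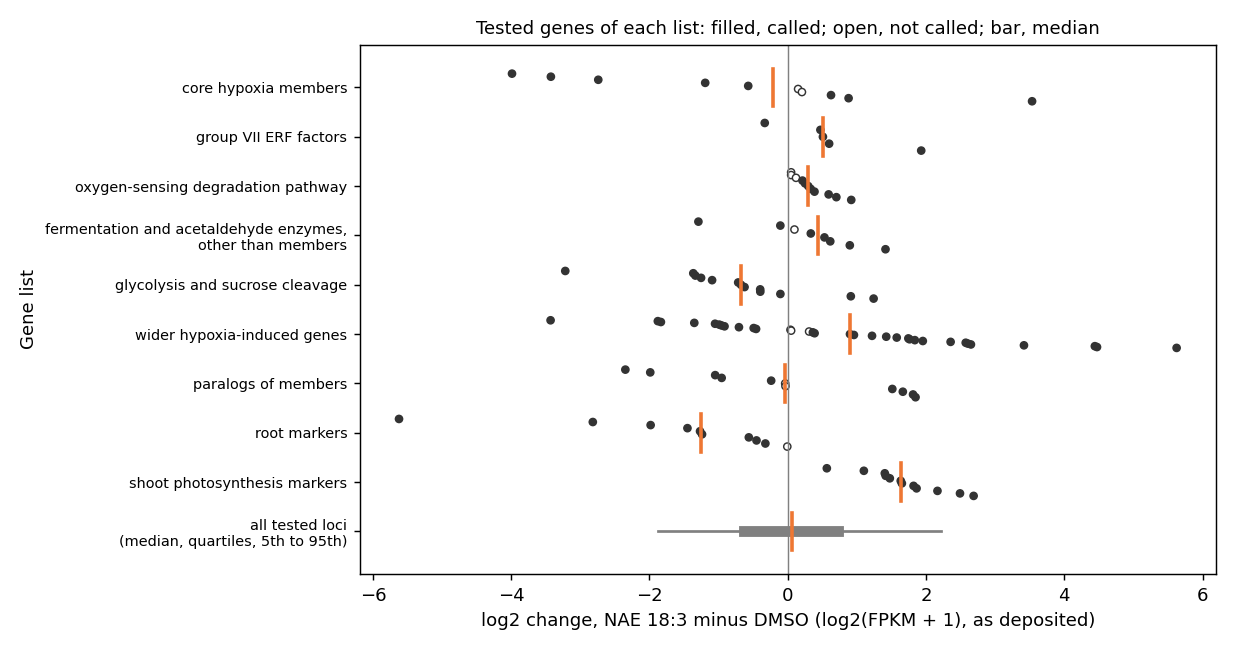
Log2 change (NAE 18:3 minus DMSO, log2(FPKM + 1), deposited scale) of every tested gene of each list, filled where called and open where not, with a bar at the median, beside percentiles of all tested loci. Glycolysis and sucrose cleavage centres below 0 (median -0.68), and the core hypoxia genes spread from -3.99 to 3.53.

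Markers of organs moved with the treatment. Of 15 root markers, 10 were tested, 9 were called lower and none higher, with a median log2 change of -1.25. Of all loci 39.2% were called lower and 44.1% higher. Under all 4 scalings 80% of the tested root markers were called lower, against 36.2% of all loci. Without the abundant beta-glucosidase gene PYK10 their summed level was 178 to 192 FPKM in DMSO and 56.1 to 63.0 FPKM in NAE 18:3. AGP30, a root arabinogalactan protein, changed by -5.62 (adjusted p = 4.71e-10) and PYK10 by -1.27 (adjusted p = 7.35e-10), while SCR, of the root endodermis, had overlapping groups (-0.01, adjusted p = 0.93). MRN1 was below the filter, at 1.40 ± 0.22 FPKM in DMSO and listed at 0 in the 3 NAE 18:3 libraries. IRT1 was also at 0 in those libraries but near 0 in DMSO, at 0.0857 ± 0.087 FPKM with overlapping groups. All 12 shoot photosynthesis markers were called higher, against 44.1% of all loci, with a median log2 change of 1.64. RCA, the activase of Rubisco, rose by 2.69 (adjusted p = 3.54e-11) and LHCB2.1, a light-harvesting protein, by 2.49 (adjusted p = 4.72e-11). Upper-quartile scaling also called all 12 higher (median 1.29), and equal-sum scaling called 11 higher and none lower (median 1.10). Quantile normalization called 7 of the 12 higher and 2 lower. All 12 lay at the 97.7th percentile of DMSO levels or higher. Quantile normalization gives equal ranks the same value in every library, so it cannot show a rise shared by the highest loci. The counts under quantile normalization therefore do not decide whether the shoot markers rose.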

How the data were processed

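Messenger RNA libraries of 6 seedling samples, 3 DMSO and 3 NAE 18:3, were compared. The authors used TopHat, Cufflinks and Cuffdiff with TAIR9, per the submitters' processing notes, in which versions are not given. The deposited table holds FPKM values of 61448 transcripts and 32424 loci. Another 4 columns, with merged values, were left out. Strand was not recorded, so overlapping antisense signal could not be told apart. Absolute depth is unknown.

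The 18194 loci averaging at least 1 FPKM were fitted as log2(FPKM + 1) by group, using limma 3.58.1 (R 4.3.3) with its trend option, and called at a Benjamini-Hochberg adjusted p under 0.05. A test on simulated data preceded the fit. SDs are between libraries of a group. The limma p-values test the difference between groups against a variance between libraries that is moderated over all tested loci. Gene pairs were compared by exact permutation in Python 3.11.15. Alternatives were other pseudocounts, filters and scalings, a replicate block, no trend, summed transcripts and leaving out each library. Equal-sum scaling was added after seeing the data.

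The 10 genes, the lists and the promoter motifs were chosen with earlier results of these data known. All ERF-VII and degradation pathway genes are named. Of other lists, up to 2 called higher and 2 called lower with the smallest adjusted p are named. The further names HB3, FAB2, AAD1, AAD3, AAD5, LBD40, SCR, PDC4, MRN1 and IRT1 were added after their values were seen. Promoter windows come from RefSeq TAIR10.1 by gene identifier, as the deposited table was used without coordinates.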

Additional observations from a re-analysis of the deposited data

How the results depend on the processing

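On the deposited scale 3 core genes were called higher and 5 lower, and these counts were the same with a pseudocount of 0.1, no filter, upper-quartile scaling, no trend and summed transcripts. At a mean of at least 5 FPKM, HRA1 and PCO2 gave no value. Quantile normalization called 5 higher, with PCO1 at 0.24, PCO2 at 0.34 and HRA1, no longer called, at -0.25. Upper-quartile scaling turned PCO1 to -0.10 and PCO2 to -0.12, and equal-sum scaling turned them to -0.26 and -0.27 and left PDC2 uncalled at 0.11. Equal-sum scaling called 4831 of all loci higher and 10786 lower, in place of 8018 and 7125.

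Counts in the other lists moved as follows. For degradation pathway genes, upper-quartile scaling called 3 higher and 2 lower, quantile normalization 5 higher, equal-sum scaling 2 higher and 6 lower, and no filter 1 lower. Equal-sum scaling called 1 ERF-VII gene higher, and 2 fermentation enzymes higher and 4 lower. Quantile normalization called 7 shoot markers higher and 2 lower, but it ties the highest ranks, where these markers lie, to common values. At 5 FPKM, 1 fermentation enzyme was lower, 1 glycolysis gene higher, 6 wider hypoxia genes lower and 3 paralogs lower. No trend left 1 fermentation enzyme lower.

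No pairing by replicate number was visible in the values, as deviations of same-numbered libraries correlated at -0.0133, -0.00872 and 0.0182. Those of differently numbered libraries ran from -0.0184 to 0.0238. These correlations cannot show whether same-numbered libraries were grown or harvested together. With the replicate number as a block, 3 core genes were higher and 5 lower, all loci gave 7951 higher and 7061 lower, and 1 fermentation enzyme was lower. Without each library in turn, 1 to 2 fermentation enzymes were lower, the change of PCO1 ran from 0.14 to 0.27 and the difference in PCO1 to PCO2 ratio from -0.018 (without DMSO replicate 1, reversed) to 0.11. PCO1 was called without DMSO or NAE 18:3 replicate 2, which made 4 core genes higher. The cause of these shifts was not tested. What depth allows could not be judged, as absolute depth is unknown.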
